A study of Mus musculus with 10 samples.

Results

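The genes described here build and serve the primary cilium: 33 genes of intraflagellar transport (IFT), its motors, the BBSome, ciliary small GTPases, and the transition zone and basal body. They were chosen by name, with earlier results of these data known. The arrays read 12393 genes under a single symbol. Of the 33 genes, 19 had a probe set under their symbol, 26 probe sets in all, and 15 passed the filter on dim signal (a log2 value over 4 on at least 5 of the 10 arrays). The remaining 4 with a probe set, Ift122, Ift172, Bbs9 and Cep290, were under that filter. Ift52, Bbs1, Bbs4, Bbs5, Bbs7, Arl6, Arl13b, Kif7, Dync2h1, Dync2li1, Wdr19, Wdr35, Ttc21b and Rpgrip1l had no probe set under their symbol and were not analysed here.

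The study compared 5 wildtype with 5 Fbln1-null mouse embryos at stage E10.5, 1 Affymetrix array per embryo, to ask how fibulin-1, a secreted matrix glycoprotein, bears on signalling by the growth factor FGF8. Null embryos carried an inherited gene trap insertion in Fbln1 and came, like the wildtype embryos, from matings between heterozygous carriers, with genotype read from yolk sac. Each sample was microdissected tissue holding the hindbrain together with the pharyngeal arches from the first to the fourth, so several cell types were read as a mixture. The labels give neither the strain background nor the litter of an embryo, and a p-value here measures only the spread between these samples.

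The primary cilium is a microtubule-based antenna that most cells of the neural tube and of the arch mesenchyme carry singly. IFT trains carry its building blocks and receptors: complex IFT-B travels outward with the kinesin-2 motor, and complex IFT-A and the dynein-2 motor bring trains back. In vertebrates Hedgehog signalling passes through the cilium, where Smo accumulates once Ptch1 has bound its ligand and Gli factors are processed, and mice without IFT genes show defects of the neural tube and face.

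Many genes of this system share a promoter element, the X-box, which RFX transcription factors bind. The element was searched for as the arm GTTNCC, then 0 to 3 bases of any kind, then the arm GGNAAC, on both strands (the joined element reads alike on either), in RefSeq promoter windows of 300 bases (mostly upstream of a transcription start, which they include, build GRCm38.p6). Of the 33 genes, 29 had a window, and 2 of their 30 windows (6.67%) held the element, in Ift57 and Bbs7. Among 106 other cilium genes listed for comparison, 94 had a window, and 8 of their 118 windows (6.78%) held it. Over all 32851 windows the share was 0.804%. A match is a description of letters, not evidence of a bound site, and a window without one says only that these letters are not in it.

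The sites of the Ift57 and Bbs7 windows are shown with those of Ahi1 and Lztfl1, other cilium genes measured below or on the same arrays, since they carry the shared element, in capitals, with up to 8 bases on each side.
Ift57: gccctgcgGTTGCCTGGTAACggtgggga
Bbs7: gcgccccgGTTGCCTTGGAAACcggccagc
Ahi1: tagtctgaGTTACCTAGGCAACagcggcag
Lztfl1, upstream site: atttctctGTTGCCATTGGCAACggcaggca
Lztfl1, downstream site: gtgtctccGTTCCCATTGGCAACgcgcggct

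The whole window is given for Ift57, whose element lies at bases 191 to 203 (chr16:49699044-49699343, plus strand, 5′ to 3′), and for Ift140, the member with the smallest p below, in which no element was found (chr17:25015836-25016135, plus strand). The Ift140 window was chosen after its values were seen.
Ift57: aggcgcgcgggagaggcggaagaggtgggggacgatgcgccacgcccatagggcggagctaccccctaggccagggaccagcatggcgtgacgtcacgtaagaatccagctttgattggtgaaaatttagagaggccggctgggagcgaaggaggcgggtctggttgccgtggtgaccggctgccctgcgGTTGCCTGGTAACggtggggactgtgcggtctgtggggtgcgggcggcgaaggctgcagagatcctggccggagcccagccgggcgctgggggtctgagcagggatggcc
Ift140: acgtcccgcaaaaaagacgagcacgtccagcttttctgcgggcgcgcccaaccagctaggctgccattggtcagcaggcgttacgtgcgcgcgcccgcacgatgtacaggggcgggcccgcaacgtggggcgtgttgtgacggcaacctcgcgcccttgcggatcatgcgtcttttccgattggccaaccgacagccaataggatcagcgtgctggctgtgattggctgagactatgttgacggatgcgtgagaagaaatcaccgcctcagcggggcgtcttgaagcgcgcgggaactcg

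The deposited values are GCRMA log2 signals, whose scale began at 2.22, and array medians lay between 3.20 and 3.29. Fbln1 itself read 4.93, 5.11, 3.83, 4.47 and 4.40 in the wildtype arrays and 2.52 to 2.85 in the null arrays, so every null array lay below every wildtype array (exact permutation p = 0.00794, two-sided, the lowest value possible with 5 arrays per genotype). Fbln1 was under the filter and its null arrays lay below the array medians, near the bottom of the scale, so the fitted log2 difference of -1.88 is only a lower bound on the size of the change. The labelled tissue was checked on markers. Over the filter were 6 of 10 hindbrain identity genes on the array, 7 of 9 neural progenitor, 11 of 11 neuron and 8 of 13 neural crest and arch mesenchyme genes, with 4 of 7 erythroid, 3 of 6 endothelial, 1 of 6 heart and 5 of 7 surface ectoderm and endoderm genes. Of all 12393 genes 5910 were over it. The hindbrain identity genes Egr2, Hoxb1, Hoxb2 and Gbx2 were under the filter. So were Dlx5, Dlx6, Hand2, Sox10 and Msx1 of the neural crest and arch mesenchyme, so the filter counts alone are a weak check of the tissue. None of 4 markers of motile ciliated cells on the array passed the filter, and Foxj1, their defining transcription factor, read 2.27 to 2.28 in both genotypes, near the bottom of the scale. Of the markers tested, 6 of 7 neural progenitor genes were lower in null tissue (2 at an unadjusted p under 0.05), 5 of 6 hindbrain identity genes were lower (1) and 4 of 8 neural crest and arch mesenchyme genes were lower (1), while 8 of 11 neuron genes (1) and 3 of 4 erythroid genes (0) were higher. In the other lists 2 of 3 endothelial genes (0) and the 1 heart gene (0) were lower. Of the surface ectoderm and endoderm genes 3 of 5 were higher (1, Trp63, difference 0.68). Over all 5910 genes tested 56.9% were lower, and 12.8% were at an unadjusted p under 0.05 in either direction. Summed over all genes of a list on the array, filtered or not, the log2 signals of the 9 neural progenitor genes ran from 50.8 to 54.5 in wildtype and 46.6 to 52.0 in null arrays, and those of the 11 neuron genes from 88.2 to 98.6 and 92.1 to 98.7. The part of tissue make-up in the differences below was not tested, and in such mixed tissue fewer cells of a type cannot be told apart from less RNA per cell.

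Between the genotypes, no cilium or IFT gene passed the threshold. Of the 15 genes tested, 0 reached an adjusted p of 0.05 in limma's moderated test (Benjamini-Hochberg over all 9801 probe sets tested, of which 2, or 0.0204%, passed), and 0 reached 0.1. At an unadjusted p under 0.05 there was 1, Ift140, against 12.8% of all 5910 genes tested (8.98% lower in null tissue and 3.84% higher). No member had genotypes whose arrays did not overlap, against 2.88% of all genes. By sign, 6 members were higher and 9 lower in null tissue, with a median log2 difference of -0.05 (null minus wildtype), and over all genes 2547 were higher and 3363 lower with a median of -0.04. The median size of the difference, whatever its sign, was 0.12 among members and 0.15 over all genes.

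The arrays bounded these differences rather than showing equality. The 95% confidence interval of each of the 15 differences lay within a 2-fold change in either direction, as did that of 93.7% of all genes, and 8 of the 15 lay within 1.5-fold. The lowest bound of any member was -0.91 and the highest 0.73, and 14 of the 15 intervals included 0. The spread of a member between embryos of one genotype had a median SD of 0.32 on the log2 scale (0.17 to 0.59), against 0.27 over all genes. Ift140 stayed at an unadjusted p under 0.05 in limma with each array left out in turn. Single arrays added a second member to that count: it was 2 without null replicate 5 (Ift80 besides Ift140), without null replicate 7 (Ofd1) and without null replicate 8 (Kif3b). The count without overlap, 0 here, was 1 without wildtype replicate 3 (Ift140), null replicate 5 (Ift80) or null replicate 7 (Ofd1). Shares over all genes with an array left out are not given here, so these counts are no result about the members.

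**Figure D1:**
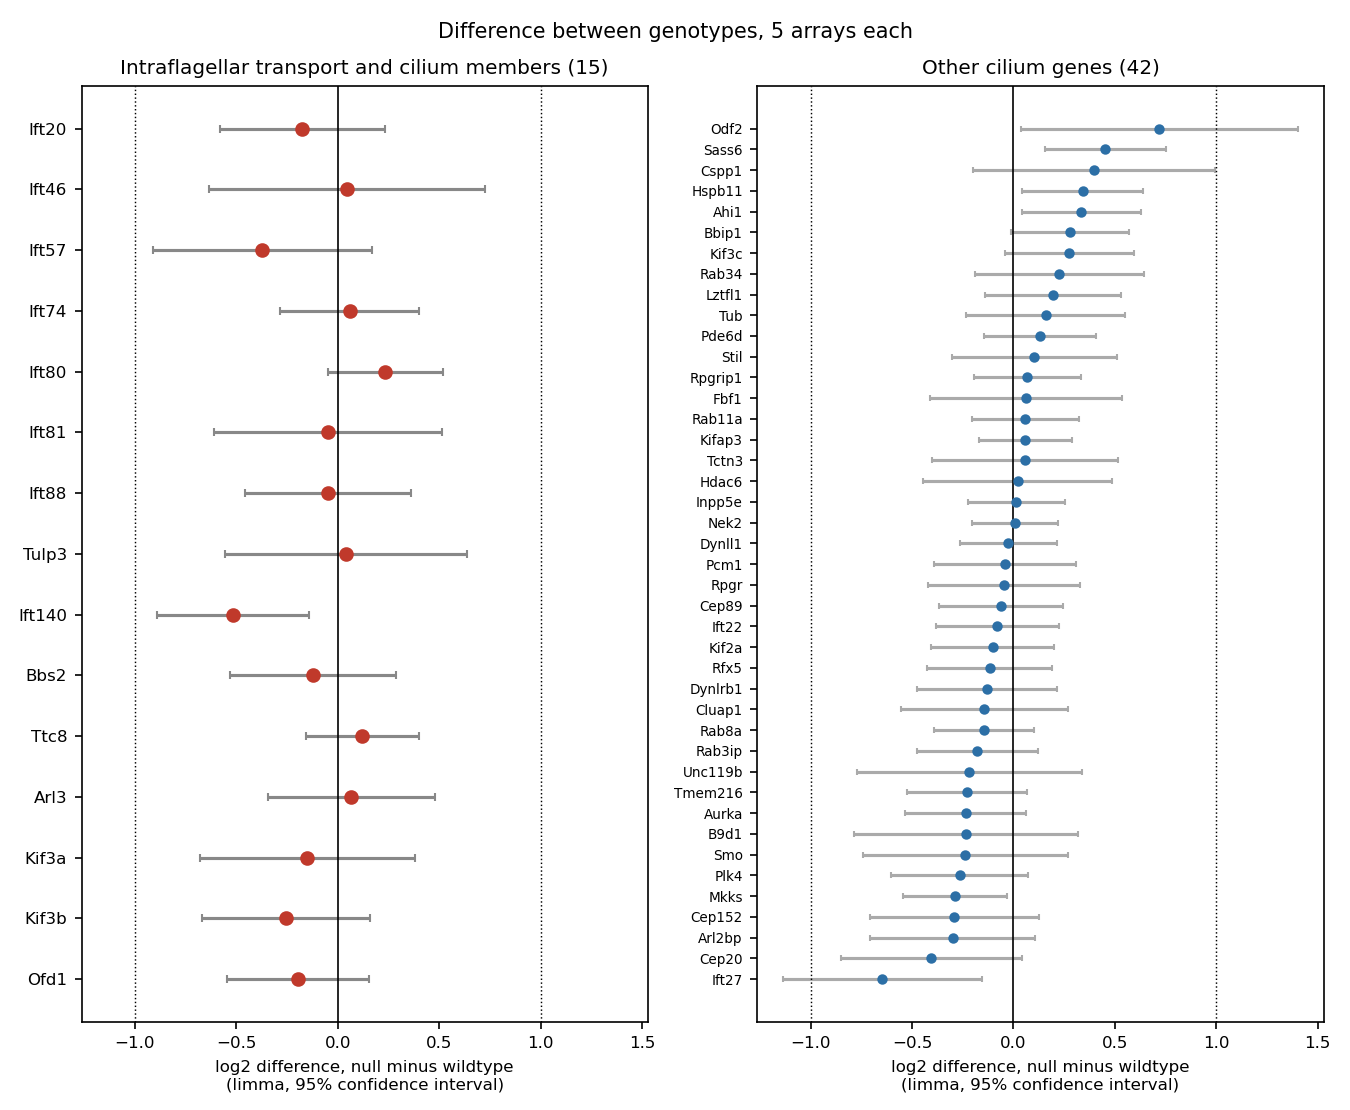
Log2 difference between genotypes (null minus wildtype, horizontal axis) with its 95% confidence interval from limma, for the 15 tested members on the left and 42 other cilium genes on the right, 5 arrays per genotype; dotted lines mark -1 and 1. Every interval of a member lies between the dotted lines and only that of Ift140 leaves out 0, while on the right the intervals of Odf2 and Ift27 cross a dotted line.

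Complex IFT-A and its partners turn trains around and admit membrane proteins to the cilium. Ift140, a core IFT-A subunit, read 8.15, 8.38, 7.75, 8.49 and 8.18 in wildtype replicates 1 to 5 and 7.78, 7.63, 8.10, 7.46 and 7.39 in null replicates 3, 4, 5, 7 and 8. Of the 5 null arrays 3 lay below every wildtype array, and wildtype replicate 3 and null replicate 5 made the overlap. The genotype means were 8.19 ± 0.29 and 7.67 ± 0.28 (SD, n = 5 each), a log2 difference of -0.52 (SE 0.17, 95% confidence interval -0.89 to -0.14), or 1.43-fold lower. The unadjusted limma p was 0.0110, place 231 of 5910 genes, and the adjusted p was 0.279, so the difference did not pass the threshold (two-sided exact permutation p = 0.0238, unadjusted). Ift140 was lower in each of the 21 alternative settings, at -0.65 to -0.30 with adjusted p 0.150 to 0.600. Its unadjusted limma p was under 0.05 in 19 of the 21. The exceptions were the replicate block (-0.30) and the fit without wildtype replicates 1 and 2 together (-0.46). It is read by 1 probe set, so no other measurement of it was at hand.

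Tulp3, an adaptor that links receptors to IFT-A and restrains Hedgehog signalling in the neural tube, had a difference near 0. It read 8.29, 7.60, 6.82, 7.15 and 7.04 in wildtype and 8.05, 7.64, 7.04, 7.14 and 7.22 in null arrays, with wildtype replicate 1 and null replicate 3 above the rest. The log2 difference was 0.04 (SE 0.27, 95% confidence interval -0.56 to 0.64, adjusted p = 0.976). Ift122, another core IFT-A subunit, read 2.27 on 9 of 10 arrays and 2.92 in null replicate 8, near the bottom of the scale, and gave no comparison.

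Complex IFT-B, the outward complex, had 8 of its 9 listed genes on the array and 7 tested, 3 higher and 4 lower in null tissue, none at an unadjusted p under 0.05. Ift80, a peripheral IFT-B subunit whose human mutations cause skeletal ciliopathies, was the member with the next smallest p. It read 7.44, 7.39, 7.63, 7.69 and 7.47 in wildtype and 7.72, 7.87, 7.41, 7.83 and 7.96 in null arrays. Of the null arrays 4 lay above every wildtype array and null replicate 5 among the lowest, for a log2 difference of 0.24 (SE 0.13, 95% confidence interval -0.05 to 0.52, adjusted p = 0.503, exact permutation p = 0.0714). Without null replicate 5 the difference was 0.32 (adjusted p = 0.340) and the genotypes did not overlap.

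Ift57, which binds Ift20 and steadies the complex, read 5.94, 6.10, 6.28, 6.13 and 6.30 in wildtype and 6.26, 6.03, 4.70, 5.83 and 6.07 in null arrays. A single array, null replicate 5, lay more than 1 log2 unit under the other 9. The difference of -0.37 (SE 0.25, 95% confidence interval -0.91 to 0.17, adjusted p = 0.580) shrank to -0.10 without it. Ift20, which shuttles between Golgi and cilium, read 6.24, 6.57, 6.95, 7.20 and 6.93 against 6.24, 6.71, 6.48, 6.87 and 6.73, with the genotypes interleaved (difference -0.17, SE 0.19, adjusted p = 0.761). Wildtype replicates 1 and 2 were its lowest wildtype arrays, and without that pair the difference was -0.42 (adjusted p = 0.401) with no overlap.

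Ift74 and Ift81, partners in binding tubulin for transport, both had differences near 0. Ift74 ran from 8.28 to 9.11 in wildtype and 8.42 to 8.90 in null arrays (difference 0.06, SE 0.16, adjusted p = 0.917). Ift81 ran from 4.43 to 5.49 and 4.21 to 5.44 (difference -0.05, SE 0.26, adjusted p = 0.966), and its other probe set gave -0.03 (SE 0.20). Both Ift81 probe sets thus had intervals wide against the size of the difference.

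Ift88, the polaris subunit whose loss removes cilia and disrupts neural tube patterning, read 4.58, 4.46, 4.63, 4.78 and 4.82 in wildtype and 4.63, 4.63, 3.89, 4.89 and 4.98 in null arrays. Only null replicate 5 left the wildtype range downward, and 2 null arrays lay above it (difference -0.05, SE 0.19, adjusted p = 0.953). Ift46, which carries dynein arm cargo in motile cilia, had the widest spread of the members. It read 5.93, 5.75, 6.75, 6.92 and 7.42 in wildtype and 6.41, 6.19, 6.29, 6.84 and 7.28 in null arrays (difference 0.05, SE 0.31, 95% confidence interval -0.64 to 0.73, adjusted p = 0.976). Ift172, at the tip turnaround of trains, read 2.43 to 2.92 and 2.31 to 2.97, under the filter.

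**Figure D2:**
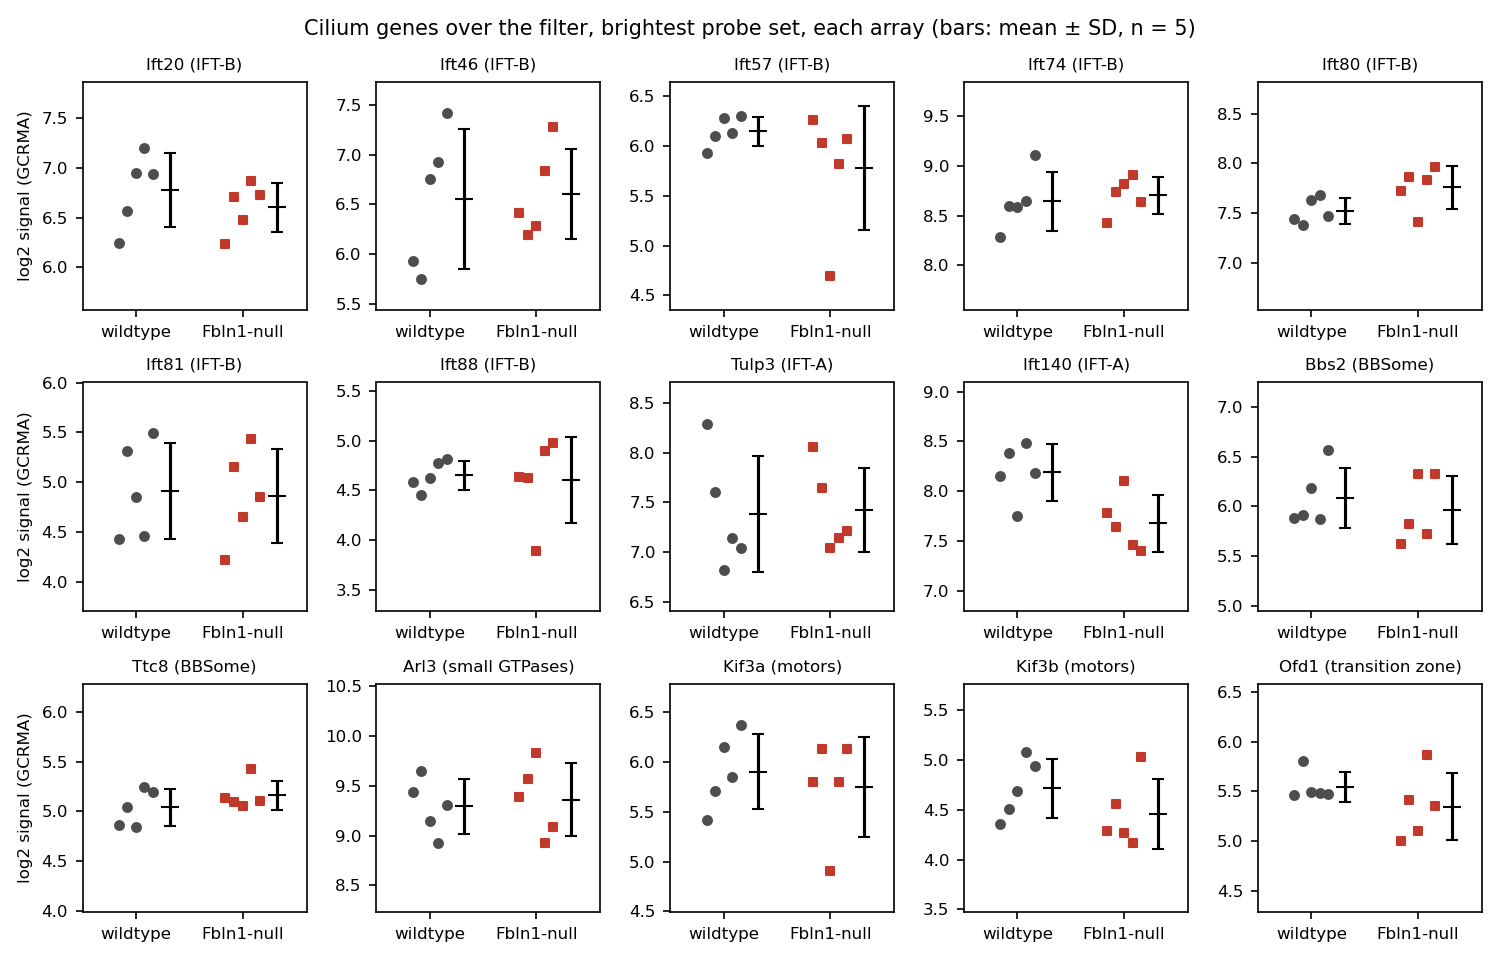
Log2 GCRMA signal (vertical axis, same span in each panel) of the 15 members over the filter by their brightest probe set, 1 point per array, wildtype as grey circles and Fbln1-null as red squares in replicate order, with mean ± SD (n = 5) as bars. The genotypes overlap in every panel; in Ift140 3 null arrays lie under all wildtype arrays, in Ift80 4 null arrays lie above them, and in Ift57 and Kif3a 1 null array, replicate 5, lies far under the rest.

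The kinesin-2 motor that drives trains outward is a pair of Kif3a and Kif3b with an accessory subunit. Kif3a read 5.42, 5.71, 6.15, 5.85 and 6.38 in wildtype and 5.80, 6.13, 4.90, 5.79 and 6.13 in null arrays, all within the wildtype range but null replicate 5. The difference was -0.15 (SE 0.24, 95% confidence interval -0.68 to 0.38, adjusted p = 0.859). On the other Kif3a probe set null replicate 5 read 5.02, among the higher arrays, and the difference was 0.12 (SE 0.16), so the low reading belongs to 1 of the 2 probe sets.

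Kif3b read 4.36, 4.51, 4.69, 5.08 and 4.94 in wildtype and 4.29, 4.56, 4.27, 4.16 and 5.03 in null arrays. Of the null arrays 3 lay under the wildtype range, and null replicate 8 was near its top (difference -0.25, SE 0.19, 95% confidence interval -0.67 to 0.16, adjusted p = 0.633). Without null replicate 8 the difference was -0.40 (adjusted p = 0.361). Its other 3 probe sets were under the filter.

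**Figure D3:**
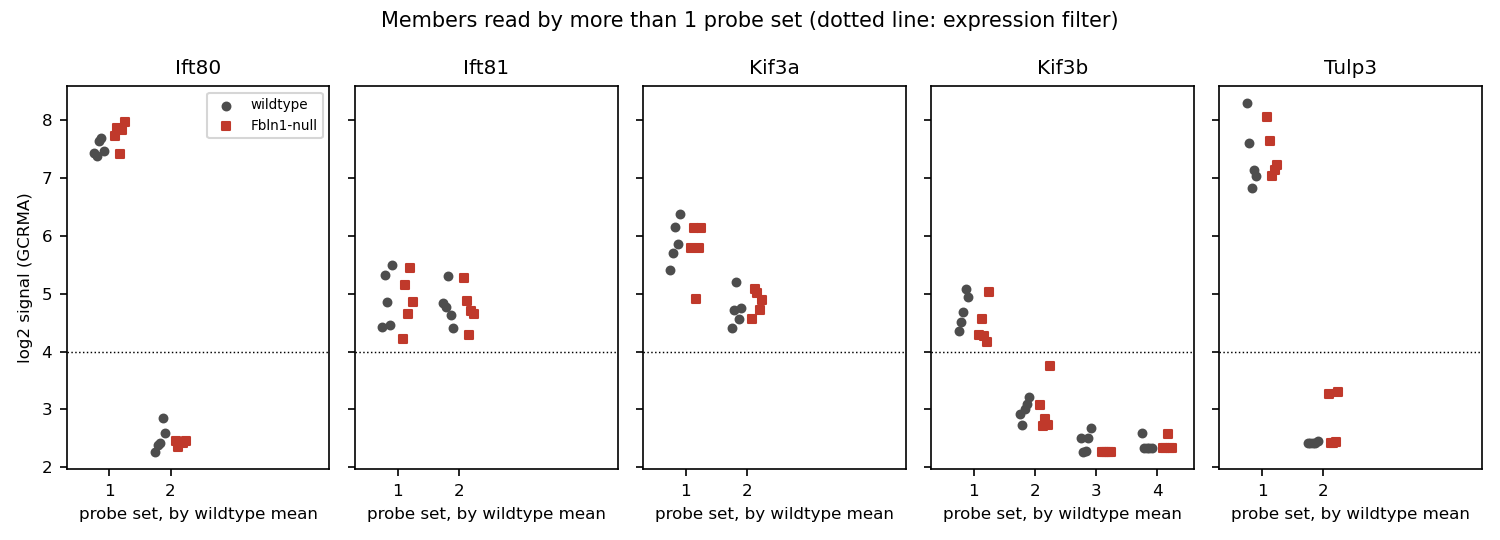
Log2 GCRMA signal (vertical axis) of every probe set of the 5 members with more than 1, ordered by wildtype mean, 1 point per array, wildtype as grey circles and Fbln1-null as red squares, with the filter at log2 4 dotted. The low null array of the brighter Kif3a probe set, at 4.90, has no counterpart on the dimmer one, and the dimmer probe sets of Ift80, Kif3b and Tulp3 lie under the filter.

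The BBSome is the cargo adaptor that moves receptors out of the cilium, and ciliary small GTPases load or release cargo. Bbs2, a core subunit, read 5.89, 5.91, 6.18, 5.87 and 6.57 in wildtype and 5.62, 5.82, 6.33, 5.72 and 6.33 in null arrays (difference -0.12, SE 0.19, adjusted p = 0.853). Ttc8, also known as Bbs8, read 4.86, 5.05, 4.85, 5.25 and 5.20 against 5.13, 5.10, 5.06, 5.42 and 5.11 (difference 0.12, SE 0.13, 95% confidence interval -0.15 to 0.40, adjusted p = 0.750). Of the Bbs2 null arrays 3 lay below every wildtype array and the other 2 inside the wildtype range, while the Ttc8 arrays of the genotypes were interleaved. Arl3, the GTPase that releases lipid-modified proteins inside the cilium, ran from 8.92 to 9.65 in wildtype and 8.93 to 9.84 in null arrays (difference 0.07, SE 0.19, adjusted p = 0.922). Bbs9 read 3.31 to 4.06 and 3.06 to 4.35, over 4 on only 3 arrays.

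At the base of the cilium, Ofd1, a protein of the distal centriole, read 5.47, 5.80, 5.50, 5.48 and 5.48 in wildtype and 5.00, 5.41, 5.11, 5.86 and 5.35 in null arrays. Of the null arrays 4 lay below every wildtype array and null replicate 7 lay above them all. The difference was -0.20 (SE 0.16, 95% confidence interval -0.55 to 0.15, adjusted p = 0.674), and without null replicate 7 it was -0.33 (adjusted p = 0.444). Cep290, a pillar of the transition zone, read 3.04 to 3.38 in wildtype and 3.04 to 3.61 in null arrays, under the filter.

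Across arrays, the members did not move as a block by genotype. The mean deviation of the 15 members from their own means over all 10 arrays was -0.13, 0.01, 0.00, 0.08 and 0.26 in wildtype replicates 1 to 5 and -0.12, 0.03, -0.26, 0.03 and 0.10 in null replicates 3, 4, 5, 7 and 8. Wildtype replicate 5 was the highest array for 6 members, null replicate 3 the lowest for 4, and null replicate 5 the lowest for Ift57, Ift88 and Kif3a. Null replicate 5 also had the largest gap between the 3′ and 5′ actin control probe sets, 2.85 on the log2 scale, against 2.0 to 2.38 in wildtype and 2.19 to 2.59 in the other null arrays. The part of RNA quality in these low readings was not tested.

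**Figure D4:**
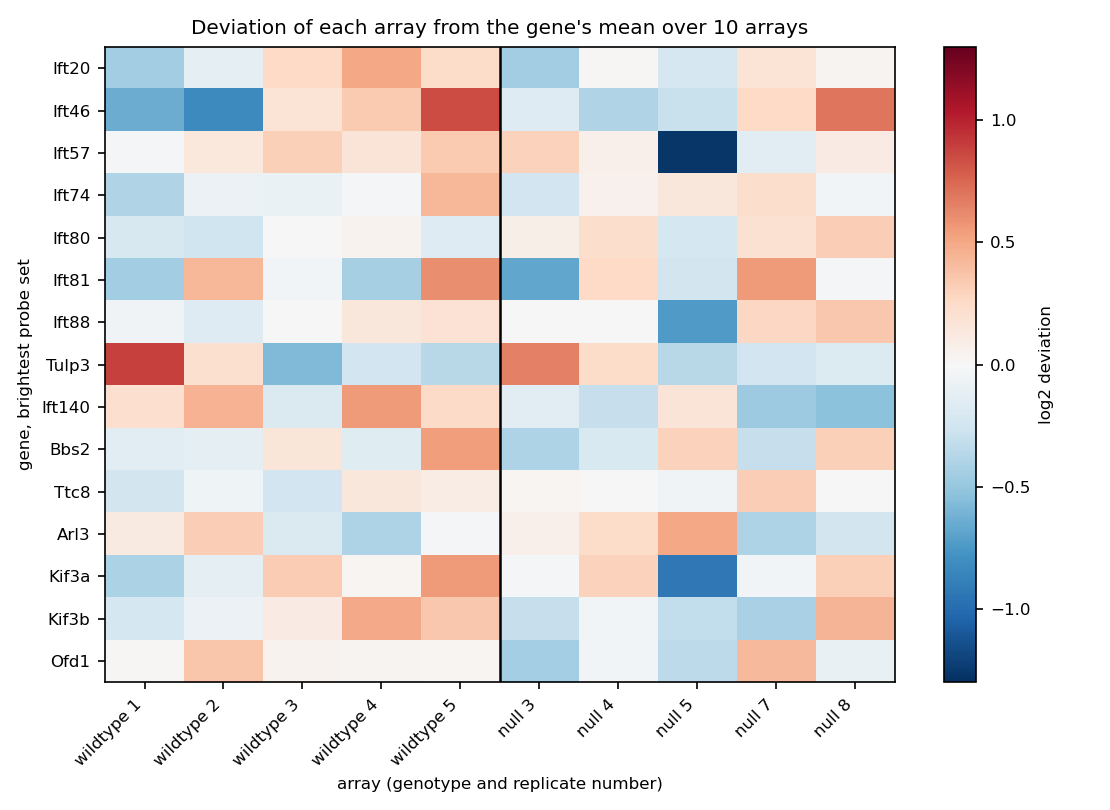
Log2 deviation of each array (columns, wildtype left and null right of the line) from the mean of each of the 15 members over 10 arrays (rows), red above and blue below the mean. The darkest cell is Ift57 in null replicate 5, Ift88 and Kif3a are low in the same array, and no row changes colour throughout at the line between genotypes.

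Members were also compared with each other within a genotype. After removal of the genotype means, the median Pearson correlation was 0.18 over 105 pairs of members across 10 arrays, with 61.0% over 0, against 0.01 and 50.9% over all pairs of genes tested. The pairs share the same arrays and RNA, so this is a description. Without null replicate 5 the median was 0.13, with 58.1% over 0. Ift57 and Ift88 had a correlation of 0.83 that was -0.03 without that array. Ift74 and the brightest Ift81 probe set had 0.75 with it and 0.81 without. Ift57 and Ift20, also binding partners, had 0.17 and 0.07. The other Ift81 probe set did not follow Ift74. In wildtype replicate 5 that probe set was at its wildtype lowest, 4.42, and Ift74 at its highest, 9.11. In null replicate 3 it was at its null highest, 5.27, and Ift74 at its null lowest, 8.42. Its correlations were not computed here. The lowest pairs were Ift88 with Arl3 at -0.82 and Ift80 with Arl3 at -0.81.

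The wider list of 106 other cilium genes had 67 on the array and 42 tested. Of these, 20 were higher and 22 lower in null tissue with a median log2 difference of -0.03, and 0 passed an adjusted p of 0.05 in limma. At an unadjusted p under 0.05 were 6, 4 higher and 2 lower, against the 12.8% of all genes given above. Of 11 further IFT and motor genes on the array 8 were tested, of 18 BBSome and GTPase genes 13, of 11 transition zone genes 7, of 15 basal body and centriole genes 9, and of 12 regulators 5. None of the 5 regulators was at an unadjusted p under 0.05, and the X-box factors Rfx1, Rfx2 and Rfx3 read 2.27 to 3.08, near the bottom of the scale.

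Ift27, a small GTPase of IFT-B that couples it to the BBSome, had the lowest difference of these genes. On its brightest probe set it read 7.22, 6.76, 6.22, 5.92 and 6.07 in wildtype and 5.62, 5.95, 5.95, 5.56 and 5.88 in null arrays, a difference of -0.65 (SE 0.23, adjusted p = 0.300), which was -0.28 without wildtype replicates 1 and 2. Its other 2 probe sets had larger differences in the same direction. The one ending in plain _at read 5.54, 6.12, 4.87, 5.21 and 5.51 in wildtype and 3.93, 4.49, 3.95, 4.23 and 4.87 in null arrays, without overlap but touching at 4.87 (difference -1.16, SE 0.24, adjusted p = 0.0861). The remaining one differed by -1.23 (SE 0.28, adjusted p = 0.116) with overlap, and like the brightest it is an _x_at probe set, which can match other transcripts. By the mean of the 3 probe sets the difference was -1.01 (adjusted p = 0.0996). In RefSeq's order Ift27 and Fbln1 both lie on chromosome 15, with 291 annotated genes between them, and none of the 33 members lies on it.

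Hspb11, also known as IFT25, which forms a pair with Ift27, was higher in null tissue: 5.03, 4.63, 5.06, 5.06 and 5.06 in wildtype against 5.07, 5.56, 5.30, 5.45 and 5.15, without overlap by a narrow margin (difference 0.34, SE 0.14, adjusted p = 0.340). Mkks, a chaperonin-like protein that assembles the BBSome, was lower, at 6.30 to 6.60 in wildtype and 5.89 to 6.27 in null arrays, without overlap (difference -0.29, SE 0.12, adjusted p = 0.343). The centriole gene Sass6, which forms the cartwheel, ran from 7.67 to 8.33 and 8.22 to 8.57 (difference 0.45, SE 0.14, adjusted p = 0.243). Ahi1, of the transition zone, differed by 0.34 (SE 0.13, adjusted p = 0.339). Its window holds an X-box, shown above. The other tested genes with the element differed in both directions: Lztfl1 by 0.20, Tctn3 by 0.06, Rab3ip by -0.18 and the member Ift57 by -0.37. Odf2, of the mother centriole appendages, read 9.83 and 9.89 in wildtype replicates 1 and 2 but 8.11 to 8.80 in the others, against 9.52 to 9.91 in null arrays (difference 0.72, SE 0.31, adjusted p = 0.378).

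A list of Hedgehog genes held members of the pathway, which signals through the cilium, and downstream patterning factors. Of 15 on the array 6 were tested, and all 6 were lower, where 56.9% of all genes were. Nkx6-2, a downstream factor among the 6, lay around the filter, at 3.63 to 4.26 in wildtype and 3.30 to 4.40 in null arrays. At an unadjusted p under 0.05 were 2, Ptch1 and the co-receptor Boc (difference -0.38, SE 0.16, adjusted p = 0.368), against 12.8% of all genes. Ptch1, the receptor and itself a target of the pathway, averaged 11.74 ± 0.13 in wildtype against 11.05 ± 0.30 in null tissue (SD, n = 5 each; difference -0.70, SE 0.15, adjusted p = 0.107) without overlap. Gli2, which was not among the 2, differed by -0.32 (SE 0.16, adjusted p = 0.448), while Gli1 and Gli3 were under the filter. None of the 6 passed an adjusted p of 0.05 in limma. Of 18 cell cycle genes tested, another group whose activity bears on whether a cell holds a cilium, 14 were lower, with a median of -0.20 against -0.04 over all genes, and 2 (11.1%) were at an unadjusted p under 0.05, near the 12.8% of all genes.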

How the data were processed

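Total RNA from each microdissected sample was converted to labelled RNA by a 3′ IVT protocol for an Affymetrix array, per the labels' protocols. The authors deposited log2 values, and the submitters' processing notes name GCRMA, whose version is not given in the sources used here. GCRMA gives 1 value per probe set and draws dim probe sets to a common floor, so differences of dim genes are compressed. Detection calls were not used here, and precision is limited by having 5 arrays per genotype.

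Of 22690 probe sets, 64 were controls, 20380 had 1 gene symbol in the platform annotation, 691 several and 1555 none. Only those with 1 symbol were named, with current symbols from RefSeq (GRCm38.p6). Wildtype and null arrays were compared with limma 3.58.1 (lmFit and eBayes, R 4.3.3), genotype alone in the model, on the 9801 probe sets with log2 over 4 on at least 5 of 10 arrays, with two-sided Benjamini-Hochberg adjusted p and a threshold of 0.05. A gene was represented by its brightest probe set over all arrays. Exact permutation tests ran over all 252 assignments of 5 and 5 arrays. The fit was tested on simulated data.

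The members, the gene lists, the tests and the naming rule were chosen with earlier results of these data known. The rule gave in full the members at an unadjusted p under 0.05 and up to the 8 with the smallest p. The 6 other cilium genes named, Boc, the Ift140 promoter and the correlations without null replicate 5 were chosen after their values were seen. Alternatives changed the scaling, the filter, a floor, the variance model or array weights, or used the replicate number, embryo sex, the actin probe ratio, the probe set of a gene, the threshold and arrays left out. The arrays were checked for duplicates: 0 pairs were identical, and correlations were 0.985 to 0.996.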

Additional observations from a re-analysis of the deposited data

Results flagged for a closer look

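Among the 30 groups of 5 arrays screened for the 15 tested members, 4 held an array whose gap to its nearest neighbour took up most of the range of the group (over 0.71 of it), and chance alone picks out about 1 in 20 such groups. Ift57 read 4.70 in null replicate 5, while the other null arrays lay at 5.83 to 6.26. Kif3a read 4.90 in the same array, against 5.79 to 6.13 in the other null arrays, but its other probe set showed no such low reading. Ttc8 read 5.42 in null replicate 7, against 5.06 to 5.13. Ofd1 read 5.80 in wildtype replicate 2, against 5.47 to 5.50 in the other wildtype arrays. The cause of these readings was not tested.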

How the results depend on the processing

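None of the 21 alternative settings put a member past the threshold. Ift57, Ift80, Ift140, Kif3b and Ofd1 kept their direction in every setting in which they were tested, and the other 10 members, all with differences under 0.2 in size, changed sign in at least 1. The sizes of the former moved: with the actin ratio covariate Ift57 was at -0.072, Kif3b at -0.021 and Ofd1 at -0.078, and Ift80 was at 0.068 under the replicate block. The count of probe sets past the threshold, 2 as reported, was 46 at an adjusted p of 0.1, 34 with a filter at log2 6, 34 with array weights, 8 with a variance trend, 1 without a filter and 0 with a sex covariate, an actin ratio covariate or without wildtype replicates 1 and 2 together, and 0 to 7 with each array left out. The sex covariate removes wildtype replicate 4, the 1 array with bright Xist and dim Y-linked signal. The count of members at an unadjusted p under 0.05, 1 as reported, was 2 with array weights, 2 with the actin ratio covariate and 1 to 2 with each array left out. Without wildtype replicates 1 and 2 together it was 1, but the member was Ift20 in place of Ift140. Shares over all genes in these settings are not given here. Members without overlap, 0 as reported, came to 1 without wildtype replicates 1 and 2 together, and 0 to 1 with each array left out. The 6 other cilium genes at an unadjusted p under 0.05 became 3 without wildtype replicates 1 and 2 together. Ptch1, whose other probe set is at the bottom of the scale, differed by -0.26 by the mean of both.

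Signs turned as follows. Quantile normalization gave 0.016 for Ift81 and 0.013 for Ift88. Array weights gave 0.014 for Ift88 and -0.0007 for Arl3. The sex covariate gave -0.025 for Arl3 and -0.018 for Tulp3. The actin ratio covariate gave 0.053 for Ift20, 0.035 for Ift81, 0.25 for Ift88, -0.23 for Arl3, 0.16 for Kif3a and -0.087 for Tulp3. Leaving out wildtype replicates 1 and 2 together gave -0.43 for Ift46 and -0.077 for Ift74. With each array left out in turn, Ift46 ran from -0.16 to 0.26, Ift74 from -0.032 to 0.18, Ift81 from -0.19 to 0.11, Ift88 from -0.14 to 0.13, Arl3 from -0.051 to 0.18, Bbs2 from -0.21 to 0.0011, Kif3a from -0.27 to 0.062 and Tulp3 from -0.12 to 0.27. The cause was not tested.

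Replicate numbers 3, 4 and 5 occur in both genotypes. The deviations of same-numbered arrays from their group means correlated at -0.19, -0.34 and 0.16 over 9801 probe sets. The labels do not say whether same-numbered arrays belong together, and 3 pairs are too few to decide it. A fit with the number as a replicate block, which rests on those 3 pairs, passed 0 probe sets. It put 4 members (Arl3, Ift20, Ift46 and Kif3b) at an unadjusted p under 0.05 and gave a median of -0.30. The share and the median over all genes in this fit are not given here, so neither value is a result about the members. The same fit gave -0.74 for Ift46, -0.12 for Ift74 and -0.0026 for Ttc8.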
